A study of Mus musculus with 18 samples.

Results

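A set of 10 inflammatory genes of brown adipocytes is described across 18 RNA-seq libraries: the cytokines Il6 and Lif, the growth factor gene Csf1, the chemokine genes Ccl2, Ccl7, Cxcl1, Cxcl5, Cxcl10 and Cxcl12, and Nfkbia, which encodes an inhibitor of NF-kB. The members were the rows of the deposited table with these 10 symbols, out of 20295 genes, and all 10 had enough reads to be tested, as did 12156 genes in all. The filter on reads used all libraries at once, and Il6 and Lif passed it through the groups where they were high. The cells were BAT-LgT, 1 line of mouse brown preadipocytes (genotype WT) carrying the SV40 large T antigen, taken 7 days into differentiation. The samples were cultures of this line and not pieces of tissue, and every group shares the large T antigen and the differentiation protocol. There were 6 groups of 3 libraries. Vehicle (DMSO), ISO (100 nM of the β-adrenergic agonist isoproterenol) and SR-3420 (10 µM per the labels, while the text of the study gives another dose, a difference that was not settled here) were given for 3 h, either alone or after 1 h with inhibitors of the lipases ATGL and HSL. The groups that received the inhibitors carry the prefix Lipase Inh. in their names (Lipase Inh. + ISO, for example). SR-3420 is a ligand of ABHD5, the co-activator of ATGL, and starts lipolysis without the receptor, so the design asks which responses to the β-adrenergic signal follow from lipolysis.

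Cytokines and chemokines are secreted proteins that carry signals between cells. IL-6 and LIF act through receptors that share the gp130 chain and signal through JAK kinases and STAT3. CC chemokines such as CCL2 and CCL7 draw monocytes, ELR-type CXC chemokines such as CXCL1 and CXCL5 draw neutrophils, CXCL10 draws activated T cells, and CXCL12 keeps progenitor and immune cells in place through CXCR4. Many of these genes are classical targets of NF-kB, whose dimers are held in the cytoplasm by IκBα, the product of Nfkbia, and are released when the IKK kinases mark IκBα for degradation. Their mRNAs are short-lived because of AU-rich elements bound by proteins such as tristetraprolin, the product of Zfp36.

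The promoter sequences of 4 members are shown because these genes had the largest rises among those with a sequence (Il6, Lif and Cxcl1) or encode the inhibitor itself (Nfkbia), and because they hold motifs of transcription factors known for cytokine control. They are the 250 bases before the start of each gene in RefSeq, build GRCm38.p6, written on the strand of the gene, and the capitals mark matches to the NF-kB consensus, to the AP-1 motif TGANTCA or to the cAMP response element half-site TGACG on either strand.
Il6, chr5:30012864-30013113, plus strand: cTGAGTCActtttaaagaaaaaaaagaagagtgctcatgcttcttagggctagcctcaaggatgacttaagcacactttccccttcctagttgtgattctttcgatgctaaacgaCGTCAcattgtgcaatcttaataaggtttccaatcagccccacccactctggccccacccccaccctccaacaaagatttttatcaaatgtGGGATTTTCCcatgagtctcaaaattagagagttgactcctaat
Lif, chr11:4257318-4257567, plus strand: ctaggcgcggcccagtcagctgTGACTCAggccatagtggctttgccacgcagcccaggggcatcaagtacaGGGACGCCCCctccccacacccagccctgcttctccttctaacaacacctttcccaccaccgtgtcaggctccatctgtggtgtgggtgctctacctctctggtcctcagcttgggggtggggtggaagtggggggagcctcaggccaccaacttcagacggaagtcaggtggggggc
Cxcl1, chr5:90890995-90891244, plus strand: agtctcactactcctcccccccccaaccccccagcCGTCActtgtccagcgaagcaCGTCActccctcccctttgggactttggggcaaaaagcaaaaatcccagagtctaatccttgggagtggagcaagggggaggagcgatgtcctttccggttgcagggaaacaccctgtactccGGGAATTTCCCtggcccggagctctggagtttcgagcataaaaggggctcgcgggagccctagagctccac
Nfkbia, chr12:55492648-55492897, minus strand: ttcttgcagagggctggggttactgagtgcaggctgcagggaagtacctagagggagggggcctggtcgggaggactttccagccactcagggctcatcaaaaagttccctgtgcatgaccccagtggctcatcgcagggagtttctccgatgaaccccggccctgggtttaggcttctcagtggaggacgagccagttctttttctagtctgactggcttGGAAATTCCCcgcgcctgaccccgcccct

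A promoter sequence was matched for 7 of the 10 members (Il6, Lif, Cxcl1, Cxcl10, Cxcl12, Csf1 and Nfkbia). The NF-kB consensus occurred in 6 of these 7, Cxcl12 being the exception, against 7.25% of all 32851 mouse promoters of the same length. Its first base lay 44 bases before the start in Il6, 71 in Cxcl1, 29 in Nfkbia, 178 in Lif and 154 in Csf1, while Cxcl10 held matches at 159, 104 and 103 bases, the last 2 overlapping each other. The AP-1 motif was found in 3 of 7 (Il6, Lif and Cxcl10) against 6.75% of all promoters. The half-site TGACG was found in 3 of 7 (Il6, Cxcl1 and Cxcl12) against 17.77%. The full cAMP response element TGACGTCA, which contains the half-site, was in 0 of 7 against 1.55%, and the composite ATF4 motif TGATGNAA was in 0 of 7 against 3.45%. All motifs were searched on both strands. A match describes the letters of these windows and not binding.

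In the build of the counts, mm9, 2 pairs of chemokine genes were neighbours. Ccl2 lies at chr11:81849079-81850954 and Ccl7 starts 8259 bases after it, at chr11:81859214-81861025, both on the plus strand. Cxcl5 (chr5:91188324-91190651) lies 129619 bases before Cxcl1 (chr5:91320271-91322141), also on the plus strand. Cxcl10 (chr5:92775665-92777915, minus strand) shares 133 exon bases with Art3 on the plus strand. Art3 had between 153 and 839 counts per library, and since the use of strand in counting was not stated, reads of this shared stretch cannot be assigned to either gene. The remaining members lie at chr5:30339701-30346508 (Il6), chr11:4157571-4172517 (Lif), chr6:117118553-117131386 (Cxcl12), chr3:107543966-107563387 (Csf1) and chr12:56590396-56593634 (Nfkbia), and overlap no other gene of the table. Only Lif shared 36-base words with transcripts of other genes, 0.15% of its own.

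The libraries held 10310447 to 21205032 gene counts, apart from Lipase Inh. + SR-3420 replicate 2 with 4263755. In that library 18.3% of the counts belonged to Lars2, against 0.0397% to 0.121% elsewhere, so the calls of the members were also made without it. Values without it are given only where stated, and most results for other genes are given with it alone. The brown adipocyte markers summed to 11199 to 17605 CPM (read counts scaled to a common library size) in each library. Endothelial markers summed to at most 1.26 CPM, and macrophage and leukocyte markers to 5.86 to 17 CPM with 6 to 12 of 15 genes at 0. The counts of markers below stand against 26.8% higher and 25% lower among all tested genes with ISO. The same shares were 26% and 25.4% with SR-3420, and 29.4% and 28.3% with ISO under inhibitors. Of the 3 macrophage and leukocyte markers that could be tested, 1 was higher with ISO (0 on total counts alone), 0 with SR-3420 and 2 with ISO under inhibitors. The sum of all 15 was 8.78 to 11.4 CPM in Vehicle, 9.56 to 17 in ISO and 7.6 to 8.92 in SR-3420, and with inhibitors 6.88 to 11.2, 12.2 to 14.9 and 5.86 to 7.12, so that Lipase Inh. + ISO did not overlap its vehicle. Of 12 tested brown adipocyte markers, 6 were higher and 0 lower with ISO (5 and 4 on total counts alone), and 7 were higher and 3 lower with SR-3420. Their sums were 12814 to 14146 CPM in Vehicle, 16468 to 17605 in ISO and 14743 to 15351 in SR-3420. The part of these markers in the results was not tested. Preadipocyte and fibroblast markers, which proliferating or undifferentiated cells would carry, summed to 613 to 827 CPM in Vehicle, 625 to 882 in ISO and 809 to 947 in SR-3420. With the inhibitors the same sums were 614 to 823 in Lipase Inh. + Vehicle, 512 to 695 in Lipase Inh. + ISO and 662 to 888 in Lipase Inh. + SR-3420. Of 10 tested markers of that list, 4 were higher with SR-3420 and 2 with ISO (on total counts alone, 2 were higher with SR-3420, and 0 higher and 2 lower with ISO), and their part in the rises below was not tested. In such bulk samples, more cells that use a gene and more RNA of it per cell cannot be told apart.

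In Vehicle the members spanned a wide range of levels when scaled to the counted length of each gene. Csf1 was highest at 52.2 ± 3.15 CPM per kb (SD, n = 3), followed by Nfkbia (41.0 ± 3.02) and Ccl2 (29.7 ± 5.76). Cxcl12 (14.3 ± 1.77) and Ccl7 (11.3 ± 2.26) overlapped in their replicates. Cxcl10 (2.91 ± 0.367), Cxcl1 (2.28 ± 0.215) and Cxcl5 (1.06 ± 0.254 CPM per kb) followed in this order without overlap. Lif (0.119 ± 0.0475) and Il6 (0.106 ± 0.0928 CPM per kb) stood at the bottom and overlapped. The mRNA of Lif and Il6 was thus near the limit of detection in unstimulated cells, with 4 to 9 raw counts of Lif and 0 to 3 of Il6 per library.

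ISO raised 5 of the 10 genes and lowered 2. Il6, Lif, Cxcl5, Cxcl1 and Ccl7 rose, with Il6, Lif and Cxcl5 at a log2 fold change of at least 1, and Cxcl12 and Nfkbia fell. Among all 12156 tested genes 51.8% passed the same test (adjusted p at most 0.05), 26.8% higher and 25% lower, and 5.03% were higher by at least 1 on the log2 scale. The median log2 fold change of the members was 0.33 against -0.02 for all genes. Scaling to total counts alone, which moved the median gene by -0.31, left 3 of the members higher and 2 lower. Il6 and Lif, which are among the larger rises and enter the median, were tested only through the groups where they were high. Under a stricter filter (at least 50 counts in 3 samples), which removed Il6, Lif and Cxcl5, 2 members were higher and 2 lower.

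SR-3420 raised 7 of the 10 genes and lowered 1. Lif, Il6, Cxcl1, Cxcl10, Ccl7, Csf1 and Ccl2 rose, the first 3 of them by at least 1 on the log2 scale, and Nfkbia fell. The share of all tested genes that passed was 51.4%, with 26% higher, 25.4% lower and 3.97% higher by at least 1. The median of the members was 0.67 against -0.02 for all genes. On total counts alone (median gene -0.16) 6 members were higher and 2 lower. With only the groups compared in the fit, Il6 had too few reads to be tested, which left 6 higher and 1 lower. Under the stricter filter, which removed Il6 and Lif, 5 were higher and 1 lower.

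**Figure D1:**
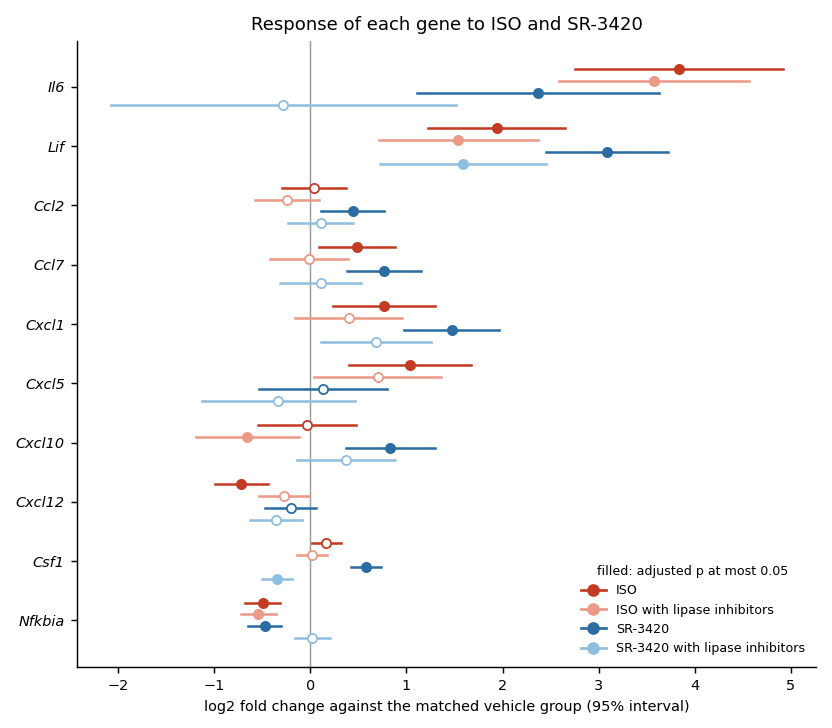
Log2 fold change of each gene after ISO or SR-3420 against the vehicle group with the same inhibitor treatment (x axis, points, with 95% intervals as lines), for ISO (red) and SR-3420 (blue) without inhibitors (dark) or with them (light), 3 libraries per group. Filled points passed an adjusted p of 0.05: 7 with ISO, 8 with SR-3420, 4 with ISO and 2 with SR-3420 in the presence of inhibitors.

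When lipolysis was blocked, ISO raised only Il6 and Lif and lowered Nfkbia and Cxcl10, 4 members against 57.7% of all genes (29.4% higher, 28.3% lower). On total counts alone (median gene -0.23) the same comparison gave 2 higher and 4 lower. With only the groups compared in the fit, Lif had too few reads to be tested, which left 1 higher and 2 lower. Under the stricter filter, which removed Il6 and Lif, 0 were higher and 3 lower. SR-3420 in the presence of the inhibitors raised Lif and lowered Csf1, 2 members against 4.34% of all genes (2.99% higher, 1.36% lower), and on total counts alone Csf1 by itself (0 higher, 1 lower). Without replicate 2 of Lipase Inh. + SR-3420 these were still the 2 that passed, Lif at a log2 fold change of 1.64 (adjusted p = 0.0461) and Csf1 at -0.32 (adjusted p = 0.0389, edgeR). The inhibitors by themselves changed 0 of 10 members by edgeR, where 0.913% of all genes passed (0.485% higher, 0.428% lower). At an unadjusted p under 0.05 there was 1 member, Csf1, and DESeq2 called 0 of the 4 members for which it gave an adjusted p.

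Il6, the founding cytokine of the gp130 family, gave the clearest response to ISO. In Vehicle its raw counts were 3, 2 and 0 in replicates 1 to 3, and in ISO they were 28, 21 and 19. In SR-3420 they were 6, 9 and 16. The ISO libraries lay far above Vehicle, and those of SR-3420 lay between both groups without overlap with either. In terms of CPM, Il6 measured 0.190, 0.155 and 0 in Vehicle, 1.94, 1.76 and 2.00 in ISO, and 0.441, 0.717 and 0.839 in SR-3420. The log2 fold change was 3.84 ± 0.52 (SE; adjusted p = 2.23e-06, edgeR) with ISO and 2.37 ± 0.61 (adjusted p = 0.00262) with SR-3420. From the summed counts alone, 68 against 5, the ratio of ISO to Vehicle was 15.2 (95% exact interval 6.21 to 48.4, counting error only), and for SR-3420 with 31 counts it was 5.50 (2.12 to 18.1). With so few Vehicle counts the fitted values are imprecise, and leaving out 1 library at a time moved that of ISO between 3.38 and 4.38. When only Vehicle and SR-3420 were fitted, Il6 was filtered out, so its SR-3420 call rests on a filter that included the ISO groups.

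With the lipases blocked, Il6 rose with ISO and did not pass the test with SR-3420. The counts were 4, 0 and 3 in Lipase Inh. + Vehicle, 20, 24 and 41 in Lipase Inh. + ISO, and 1, 1 and 2 in Lipase Inh. + SR-3420. On the CPM scale the same libraries measured 0.292, 0 and 0.173, then 1.80, 2.20 and 2.08, and then 0.0901, 0.266 and 0.127. All ISO libraries lay above both other groups, and the SR-3420 libraries overlapped their vehicle. With inhibitors the log2 fold change was 3.57 ± 0.47 (SE; adjusted p = 1.3e-06, edgeR) for ISO, or 4.21 without replicate 1 of Lipase Inh. + Vehicle, and -0.28 (95% interval -2.07 to 1.51) for SR-3420. The ISO response with inhibitors differed from that without by -0.26 (95% interval -2.02 to 1.5, adjusted p = 0.85), an interval too wide to call the responses equal. For SR-3420 the difference was -2.65 (95% interval -4.91 to -0.38) and missed the threshold over all genes (adjusted p = 0.0768), and single libraries moved it both ways, to -3.11 (adjusted p = 0.0257) without replicate 2 of Lipase Inh. + Vehicle and to -2.01 (adjusted p = 0.285) without replicate 1 of the same group.

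Lif, the second gp130 cytokine of the set, showed the reverse order, with SR-3420 above ISO. The counts were 6, 9 and 4 in Vehicle, 25, 23 and 18 in ISO, and 45, 55 and 87 in SR-3420, or 0.379, 0.696 and 0.353, then 1.73, 1.93 and 1.89, and then 3.31, 4.38 and 4.56 CPM. No library overlapped between these 3 groups. Lif rose by 1.94 ± 0.34 on the log2 scale (SE; adjusted p = 6.55e-05, edgeR) with ISO and by 3.09 ± 0.30 (adjusted p = 3.34e-08) with SR-3420, and the summed counts gave ratios of 3.89 (95% exact interval 2.30 to 6.86) and 8.72 (5.43 to 14.8).

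With the inhibitors Lif rose in both comparisons. The counts were 6, 3 and 5 in Lipase Inh. + Vehicle, 13, 9 and 18 in Lipase Inh. + ISO, and 8, 3 and 20 in Lipase Inh. + SR-3420, that is 0.437, 0.247 and 0.289, then 1.17, 0.824 and 0.912, and then 0.721, 0.799 and 1.27 CPM. Every stimulated library lay above the vehicle libraries, and the 2 stimulated groups overlapped each other. The log2 fold change was 1.54 ± 0.40 (SE; adjusted p = 0.00226, edgeR) for ISO and 1.59 ± 0.42 (adjusted p = 0.0298) for SR-3420. The latter call was lost without replicate 3 of Lipase Inh. + SR-3420 (1.17, adjusted p = 0.384) and without replicate 2 or 3 of Lipase Inh. + Vehicle (1.46, adjusted p = 0.108, and 1.49, adjusted p = 0.107), and by DESeq2 (1.61, adjusted p = 0.0531). The inhibitors changed the response to SR-3420 by -1.5 ± 0.57 (adjusted p = 0.0545), which passed in 3 of the fits that left out 1 library: without replicate 1 of SR-3420 (-1.63, adjusted p = 0.0459), replicate 2 of Vehicle (-1.86, adjusted p = 0.0284) or replicate 3 of Lipase Inh. + SR-3420 (-1.91, adjusted p = 0.0271). For ISO the change was -0.40 (95% interval -1.59 to 0.79). With only the groups compared in the fit, Lif was filtered out for ISO and for SR-3420 under inhibitors.

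Csf1, the growth factor of macrophages, was the most abundant member, and its response to SR-3420 depended on the inhibitors. The levels were 220, 204 and 230 CPM in Vehicle, 248, 269 and 217 in ISO, and 302, 352 and 322 in SR-3420. All SR-3420 libraries exceeded all Vehicle and ISO libraries, whereas ISO overlapped Vehicle. SR-3420 raised Csf1 by 0.58 ± 0.07 on the log2 scale (SE; adjusted p = 1.14e-06, edgeR), and ISO gave 0.17 ± 0.07 (adjusted p = 0.062), which passed without replicate 3 of Vehicle (0.20, adjusted p = 0.0446) or of ISO (0.25, adjusted p = 0.00725).

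In the presence of the inhibitors SR-3420 instead lowered Csf1. The levels were 246, 259 and 253 CPM in Lipase Inh. + Vehicle, 253, 258 and 256 in Lipase Inh. + ISO, and 205, 192 and 198 in Lipase Inh. + SR-3420. The last group lay below both others in every library and overlapped Vehicle. All Lipase Inh. + Vehicle libraries lay above all Vehicle libraries, by 0.21 ± 0.07 on the log2 scale (SE; adjusted p = 0.227, edgeR). The part of this higher baseline in the fall was not tested. The log2 fold change was -0.35 ± 0.07 (SE; adjusted p = 0.00746, edgeR) for SR-3420 and 0.02 ± 0.07 (adjusted p = 0.857) for ISO. The difference between the SR-3420 responses with and without inhibitors was -0.92 ± 0.10 (adjusted p = 1.31e-06), and -0.90 (adjusted p = 7.70e-06) without replicate 2 of Lipase Inh. + SR-3420. For ISO it was -0.15 (95% interval -0.37 to 0.07).

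**Figure D2:**
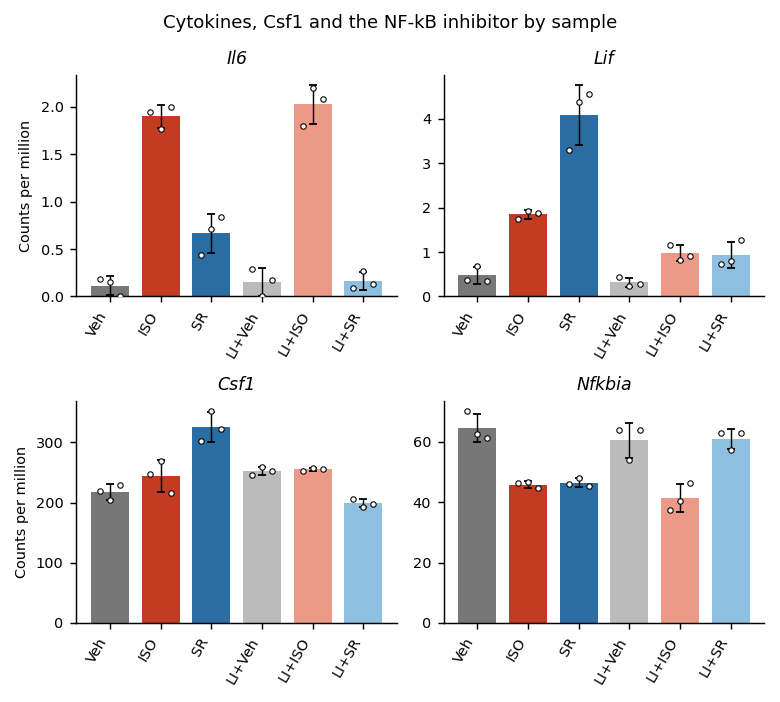
CPM (y axis) of Il6, Lif, Csf1 and Nfkbia in the 6 groups (x axis; Veh, Vehicle; SR, SR-3420; LI, Lipase Inh.), with bars for the mean, error bars for the SD and a point for each of the 3 libraries. Il6 stands near 2 CPM in both ISO groups, Lif and Csf1 are highest in SR-3420, and Nfkbia is low in ISO, SR-3420 and LI+ISO but not in LI+SR.

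Ccl2 and Ccl7, the monocyte attractants encoded side by side, rose with SR-3420. Ccl2 measured 26, 18.6 and 27.2 CPM in Vehicle, 24.6, 20.7 and 28.7 in ISO, and 32.8, 30.8 and 33.7 in SR-3420. ISO overlapped Vehicle (log2 fold change 0.04, 95% interval -0.30 to 0.37) and SR-3420 did not (0.44 ± 0.16, adjusted p = 0.0232, edgeR). That rise was lost without replicate 1 of SR-3420 (0.43, adjusted p = 0.0546), replicate 2 of Vehicle (0.29, adjusted p = 0.143) or replicate 3 of SR-3420 (0.41, adjusted p = 0.0655), and on total counts alone (0.28, adjusted p = 0.155). With inhibitors Ccl2 measured 25.7, 18.7 and 29.5 CPM in Lipase Inh. + Vehicle, 20.2, 17.9 and 24.2 in Lipase Inh. + ISO, and 27.5, 22.1 and 28.6 in Lipase Inh. + SR-3420, and these groups overlapped. Neither comparison within them passed, at -0.24 (adjusted p = 0.207) and 0.11 (adjusted p = 0.81), although the former did without replicate 2 of Lipase Inh. + Vehicle (-0.40, adjusted p = 0.0365) and on total counts alone (-0.47, adjusted p = 0.0198).

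Ccl7 measured 11.0, 7.42 and 8.73 CPM in Vehicle, 13.7, 13.9 and 10.5 in ISO, and 17, 13.8 and 15.7 in SR-3420. The SR-3420 libraries exceeded Vehicle throughout, while the lowest ISO library lay below the highest Vehicle library. Ccl7 rose by 0.77 ± 0.18 (SE; adjusted p = 0.00155, edgeR) with SR-3420 and by 0.49 ± 0.19 (adjusted p = 0.0366) with ISO. The ISO call was lost without replicate 1 or 2 of ISO (0.43 and 0.42, both adjusted p = 0.116) and without replicate 2 or 3 of Vehicle (0.36, adjusted p = 0.16, and 0.46, adjusted p = 0.0826), and on total counts alone (0.18, adjusted p = 0.416). In the presence of inhibitors Ccl7 stood at 8.46, 7.66 and 10.5 CPM in Lipase Inh. + Vehicle, 8.28, 7.14 and 10.6 in Lipase Inh. + ISO, and 7.12, 9.33 and 12.0 in Lipase Inh. + SR-3420, with overlap throughout. The response to SR-3420 differed by -0.66 ± 0.27 with inhibitors (adjusted p = 0.0782), and passed without replicate 1 of Vehicle (-0.84, adjusted p = 0.0364) or replicate 3 of Lipase Inh. + SR-3420 (-0.96, adjusted p = 0.0166). The difference for ISO was -0.51 (95% interval -1.07 to 0.06).

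Among the neutrophil attractants, Cxcl1 responded more to SR-3420 and Cxcl5 more to ISO. Cxcl1 counts were 36, 25 and 26 in Vehicle, 57, 42 and 34 in ISO, and 76, 81 and 115 in SR-3420, or 2.28, 1.93 and 2.29, then 3.96, 3.53 and 3.57, and then 5.58, 6.45 and 6.03 CPM. The groups did not overlap. Cxcl1 rose by 1.47 ± 0.24 (SE; adjusted p = 2.55e-05, edgeR) with SR-3420 and by 0.77 ± 0.26 (adjusted p = 0.0154) with ISO. The latter missed the threshold without replicate 1 of ISO (0.71, adjusted p = 0.0568), without replicate 2 of Vehicle (0.69, adjusted p = 0.0545) and on total counts alone (0.46, adjusted p = 0.117). With inhibitors Cxcl1 measured 1.17, 1.98 and 2.43 CPM in Lipase Inh. + Vehicle, 3.15, 1.74 and 2.53 in Lipase Inh. + ISO, and 2.16, 4.00 and 3.37 in Lipase Inh. + SR-3420, and all 3 groups overlapped. The log2 fold changes there were 0.40 (adjusted p = 0.21) and 0.68 (adjusted p = 0.205). With SR-3420 the inhibitor effect on the response was -0.79 ± 0.37 (adjusted p = 0.118), which passed without replicate 1 of Lipase Inh. + Vehicle (-1.02, adjusted p = 0.0417).

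Cxcl5 counts were 23, 29 and 18 in Vehicle, 47, 41 and 40 in ISO, and 29, 27 and 30 in SR-3420, or 1.45, 2.24 and 1.59, then 3.26, 3.44 and 4.20, and then 2.13, 2.15 and 1.57 CPM. ISO lay above both other groups, which overlapped each other. ISO raised Cxcl5 by 1.04 ± 0.30 (SE; adjusted p = 0.00693, edgeR), while SR-3420 gave 0.13 (95% interval -0.53 to 0.80). In inhibitor-treated cells Cxcl5 stood at 1.02, 1.73 and 1.68 CPM in Lipase Inh. + Vehicle, 2.61, 1.28 and 3.09 in Lipase Inh. + ISO, and 0.811, 2.13 and 1.15 in Lipase Inh. + SR-3420. Replicate 2 of Lipase Inh. + ISO was the low library of its group, and the ISO comparison (0.70 ± 0.32, adjusted p = 0.0652) passed without it (0.96, adjusted p = 0.0114).

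Cxcl10, the T cell attractant, rose with SR-3420 and not with ISO. The counts were 58, 38 and 34 in Vehicle, 48, 33 and 32 in ISO, and 61, 70 and 134 in SR-3420, or 3.67, 2.94 and 3.00, then 3.33, 2.77 and 3.36, and then 4.48, 5.57 and 7.02 CPM. Each SR-3420 library exceeded the Vehicle libraries. SR-3420 raised Cxcl10 by 0.83 ± 0.22 (SE; adjusted p = 0.00371, edgeR), and ISO gave -0.03 (95% interval -0.54 to 0.48). With inhibitors the levels were 2.11, 3.54 and 3.52 CPM in Lipase Inh. + Vehicle, 2.07, 1.46 and 2.18 in Lipase Inh. + ISO, and 3.06, 4.53 and 4.52 in Lipase Inh. + SR-3420. Lipase Inh. + ISO overlapped its vehicle in 1 library, and the fall of -0.66 ± 0.26 (adjusted p = 0.0336) was lost without replicate 1 (-0.70, adjusted p = 0.0531) or 2 (-0.52, adjusted p = 0.125) of that group and without replicate 2 (-0.55, adjusted p = 0.108) or 3 (-0.53, adjusted p = 0.141) of Lipase Inh. + Vehicle. Art3, with which Cxcl10 shares exon bases, changed by -0.21 ± 0.09 with SR-3420 (adjusted p = 0.0442) and by -0.37 ± 0.09 with ISO under inhibitors (adjusted p = 0.000991), so it moved against Cxcl10 in the former comparison and with it in the latter, and its part in the Cxcl10 counts was not tested.

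Cxcl12, the ligand of CXCR4, was the chemokine that fell with ISO. It measured 45.9, 39.7 and 50.9 CPM in Vehicle, 26, 26.1 and 30.9 in ISO, and 38.6, 36.6 and 42.9 in SR-3420. ISO lay below Vehicle in every library, and SR-3420 overlapped Vehicle. The log2 fold change was -0.72 ± 0.13 (SE; adjusted p = 9.72e-05, edgeR) with ISO and -0.20 ± 0.13 (adjusted p = 0.192) with SR-3420, and the latter passed on total counts alone (-0.36, adjusted p = 0.031). With inhibitors Cxcl12 stood at 49.7, 40.5 and 62.4 CPM in Lipase Inh. + Vehicle, 42.9, 37.8 and 45.5 in Lipase Inh. + ISO, and 41.5, 34.4 and 41.8 in Lipase Inh. + SR-3420, with overlap. Neither comparison passed (-0.28, adjusted p = 0.0676, and -0.36, adjusted p = 0.15), though both did without replicate 2 of Lipase Inh. + Vehicle (-0.41, adjusted p = 0.00664, and -0.49, adjusted p = 0.0294), and the former also did on total counts alone (-0.50, adjusted p = 0.00308).

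The inhibitor effect on the Cxcl12 response to ISO was 0.45 ± 0.18 (SE; adjusted p = 0.0681, edgeR). It passed without replicate 2 of Vehicle (0.54, adjusted p = 0.0358), replicate 3 of ISO (0.53, adjusted p = 0.0413), replicate 2 of Lipase Inh. + ISO (0.52, adjusted p = 0.0472) or replicate 3 of Lipase Inh. + Vehicle (0.62, adjusted p = 0.0074), and on total counts alone (0.53, adjusted p = 0.0489). Without a filter on low counts it also passed (0.46, adjusted p = 0.0306).

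**Figure D3:**
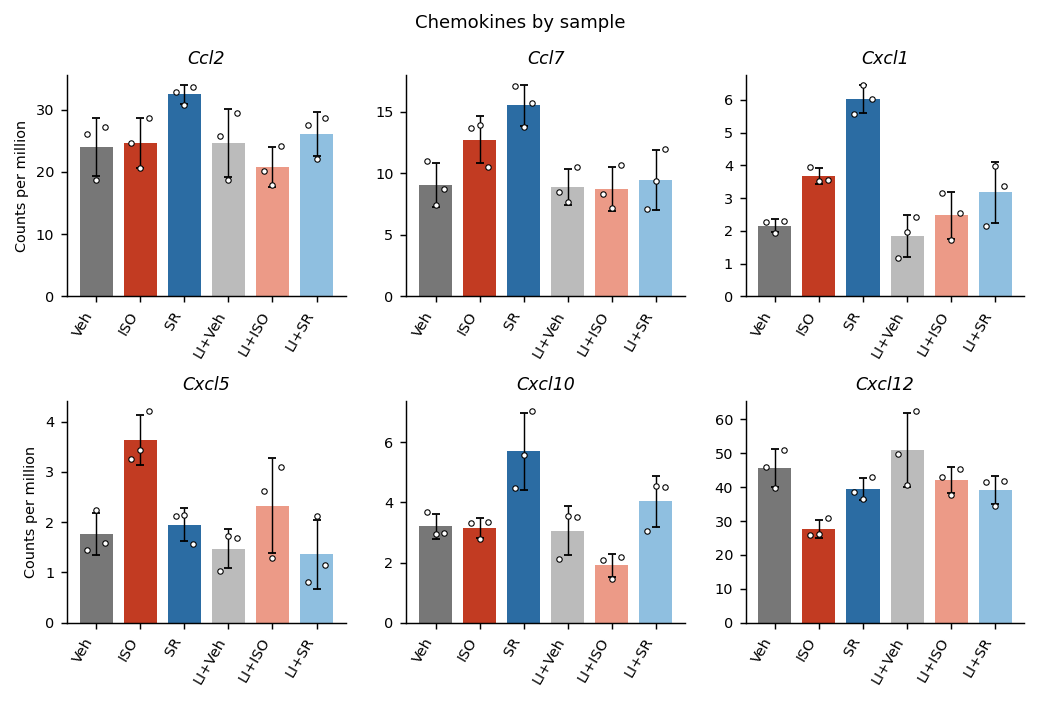
CPM (y axis) of the 6 chemokine genes in the 6 groups (x axis, abbreviated as in the plot of the cytokines), with bars for the mean, error bars for the SD and a point for each of the 3 libraries. Ccl7, Cxcl1 and Cxcl10 are highest in SR-3420, Cxcl5 is highest in ISO, and Cxcl12 is lowest in ISO.

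Nfkbia, the inhibitor of the set, fell in the groups where cytokines rose, except under SR-3420 with inhibitors. It measured 70.1, 62.5 and 61.4 CPM in Vehicle, 46.3, 46.7 and 44.6 in ISO, and 46.0, 48.2 and 45.5 in SR-3420. Both stimulated groups lay below Vehicle and overlapped each other. The log2 fold change was -0.50 ± 0.09 (SE; adjusted p = 5e-05, edgeR) with ISO and -0.48 ± 0.08 (adjusted p = 7.75e-05) with SR-3420. The direct difference between the stimuli was -0.02 (95% interval -0.20 to 0.16).

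With the lipases blocked, Nfkbia fell with ISO and not with SR-3420. The levels were 63.9, 53.9 and 63.9 CPM in Lipase Inh. + Vehicle, 37.5, 40.4 and 46.4 in Lipase Inh. + ISO, and 63, 57.3 and 63 in Lipase Inh. + SR-3420. ISO lay below both other groups in every library, and SR-3420 overlapped its vehicle. The log2 fold change was -0.54 ± 0.09 (SE; adjusted p = 1.37e-05, edgeR) for ISO and 0.02 (95% interval -0.16 to 0.20) for SR-3420. The inhibitors shifted the SR-3420 response by 0.50 ± 0.12 (adjusted p = 0.00387), or by 0.53 (adjusted p = 0.00393) without replicate 2 of Lipase Inh. + SR-3420, and the ISO response by -0.04 (95% interval -0.30 to 0.21).

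Over the 10 genes, the inhibitors changed the SR-3420 response of 2, Csf1 and Nfkbia, with 6 at an unadjusted p under 0.05 (edgeR), where 27.3% of all genes passed (12.5% higher, 14.8% lower). They changed the ISO response of 0 of 10 by edgeR and by DESeq2, with 1 at an unadjusted p under 0.05, where 31.4% of all genes passed (14.9% higher, 16.6% lower). This 0 depended on the processing. By edgeR, 1 member, Cxcl12, passed on total counts alone (adjusted p = 0.0489) and without a filter on low counts (adjusted p = 0.0306). The median difference of the members was -0.57 for SR-3420 and -0.31 for ISO, against 0.01 for all genes in both. The intervals for both stimuli were wide for the cytokines. Equal responses with and without lipolysis were therefore not shown for the genes that did not pass.

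**Figure D4:**
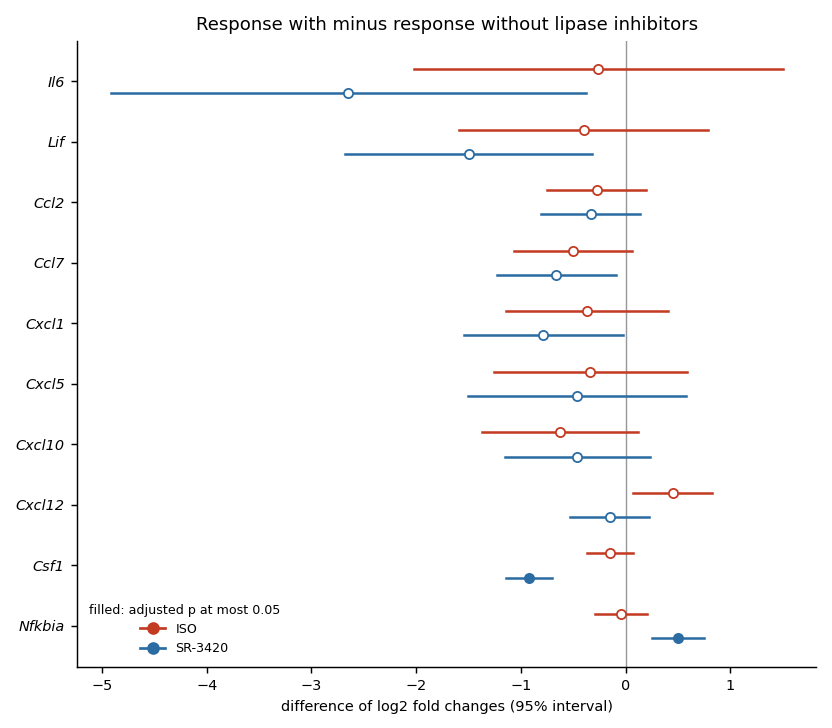
Difference between the response with and without lipase inhibitors (x axis, points, log2 scale, with 95% intervals as lines) for ISO and SR-3420, from 3 libraries per group. Filled points, Csf1 at -0.92 and Nfkbia at 0.50 with SR-3420, passed an adjusted p of 0.05, and the intervals are widest for Il6.

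A direct comparison of ISO with SR-3420, both without inhibitors, separated 7 of the 10 genes, against 29.7% of all genes (15.8% higher and 13.9% lower with ISO). Il6 was higher with ISO by 1.47 ± 0.37 (SE; adjusted p = 0.00465, edgeR) and Cxcl5 by 0.90 ± 0.30 (adjusted p = 0.0256). Lif was lower with ISO at -1.15 ± 0.25 (adjusted p = 0.00143), as were Cxcl10 (-0.86 ± 0.23, adjusted p = 0.00664), Cxcl1 (-0.70 ± 0.22, adjusted p = 0.0221), Cxcl12 (-0.52 ± 0.13, adjusted p = 0.00532) and Csf1 (-0.41 ± 0.07, adjusted p = 0.000232). Ccl2 gave -0.40 ± 0.16 (adjusted p = 0.0581) and passed by DESeq2 (adjusted p = 0.0469), while Ccl7 (-0.28, 95% interval -0.65 to 0.10) did not separate. The call for Cxcl5 was lost without replicate 2 (0.93, adjusted p = 0.0508) or 3 (0.80, adjusted p = 0.0806) of ISO or replicate 3 of SR-3420 (0.75, adjusted p = 0.124). That for Cxcl1 was lost without replicate 2 (-0.67, adjusted p = 0.0689) or 3 (-0.68, adjusted p = 0.0532) of ISO or replicate 2 (-0.65, adjusted p = 0.06) or 3 (-0.70, adjusted p = 0.0594) of SR-3420, and that for Cxcl10 without replicate 3 of SR-3420 (-0.67, adjusted p = 0.0625). Without this last library 4 members passed.

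Of 133 other genes of the same pathways, in 9 lists, 77 had enough reads to be tested. Of these 77, 39 passed with ISO, 37 with SR-3420, 45 with ISO under inhibitors and 3 with SR-3420 under inhibitors. These were 50.6%, 48.1%, 58.4% and 3.9% of the 77, near the shares of all tested genes in the same comparisons (51.8%, 51.4%, 57.7% and 4.34%). For single lists the counts below stand against 26.8% higher and 25% lower among all genes with ISO, and 26% higher and 25.4% lower with SR-3420. For the inhibitor differences the shares of all genes were 14.9% higher and 16.6% lower with ISO, and 12.5% higher and 14.8% lower with SR-3420. The inhibitors alone changed 0 by edgeR, with 13 at an unadjusted p under 0.05, and DESeq2 called 3 of the 77. Most other chemokine ligands had few reads or none, since 5 of 31 could be tested and 13 to 19 of those in the table had 0 counts in a given library. Likewise 2 of the 11 receptors of the members could be tested.

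In the list of other IL-6 family ligands, 2 of 5 tested genes rose with ISO and with SR-3420. Clcf1, which encodes cardiotrophin-like cytokine factor 1, went from 7.02 ± 1.22 CPM in Vehicle to 20.7 ± 4.72 in ISO and 23.7 ± 1.90 in SR-3420 (SD, n = 3), log2 fold changes of 1.57 and 1.75. With inhibitors it rose by 1.97 with ISO and measured 0.33 (adjusted p = 0.434) with SR-3420, a difference from the response without inhibitors of -1.42 ± 0.26 (SE; adjusted p = 0.000339, edgeR). Il11 stood at 0.284 CPM in Vehicle and 1.01 in both stimulated groups, with 2 to 7 counts per Vehicle library, and rose by 1.78 in ISO and 1.68 in SR-3420. Its Vehicle counts were too few for the filter on reads, so these calls rest on a filter that included groups with more counts.

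Of 13 tested genes for IL-6 family receptors and signalling, 3 were higher and 5 lower with ISO, and 3 were higher and 3 lower with SR-3420. On total counts alone the split was 3 and 8 with ISO, and 3 and 6 with SR-3420. With inhibitors, 5 of the 13 responded more to ISO and 0 less, and 0 more and 4 less to SR-3420 (5 and 0, and 0 and 3, on total counts alone). Osmr, the oncostatin M receptor chain, rose by 0.83 in ISO and 1.17 in SR-3420, and the inhibitors changed these responses by 0.55 (adjusted p = 0.031) and -1.34 (adjusted p = 2.86e-05). Socs1, a feedback inhibitor of JAK kinases, fell by 1.21 on the log2 scale with ISO, and Pias3, an inhibitor of STAT3, also fell by 1.21. Socs3, the feedback inhibitor of gp130 signalling, measured 28.2, 30.4 and 31.6 CPM in Vehicle, ISO and SR-3420 and 72.9 CPM in Lipase Inh. + ISO. Its ISO response was larger with inhibitors, by 1.33 ± 0.17 (SE; adjusted p = 4.12e-06, edgeR).

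Among 19 NF-kB factors and kinases, 8 were higher and 3 lower with ISO, with a median log2 fold change of 0.17 (all genes -0.02), and 12 were higher and 1 lower with SR-3420, with a median of 0.48 (all genes -0.02). The direction with ISO depended on the scaling, since total counts alone gave 2 higher and 6 lower, whereas for SR-3420 it gave 10 and 2. Chuk, the gene of IKKα, rose by 1.08 in ISO and 0.85 in SR-3420, and Ikbke, which encodes a related kinase, fell by 1.03 with ISO. With the inhibitors, 10 of the 19 had a lower response to SR-3420 and 1 a higher one, and 5 had a lower and 2 a higher response to ISO. On total counts alone the ISO split turned to 2 lower and 4 higher, while that of SR-3420 stayed at 10 and 1.

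Other NF-kB inhibitors and feedback genes moved in both directions, 4 higher and 2 lower of 13 with ISO and 3 higher and 2 lower with SR-3420. On total counts alone these were 2 and 8, and 2 and 3. With inhibitors, 3 of the 13 responded more to ISO and 2 less, and 2 responded more to SR-3420 and 2 less. On total counts alone both of the calls for a smaller ISO response were lost, while the SR-3420 split stayed. Tnfaip3, the gene of the deubiquitinating enzyme A20, rose by 1.1 in ISO and 0.45 in SR-3420, and its ISO response was larger with inhibitors by 1.02 ± 0.14 (SE; adjusted p = 1.07e-05, edgeR). Irak3, which restrains Toll-like receptor signalling, measured 12.5 CPM in Vehicle, 16.8 in ISO and 74.9 in Lipase Inh. + ISO, and its ISO response was larger with inhibitors by 1.88 ± 0.16 (adjusted p = 1.37e-08). In contrast to Nfkbia, neither gene fell with ISO.

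Of 11 factors that control the decay of cytokine mRNA, 5 were higher and 1 lower with ISO, and 7 were higher and 0 lower with SR-3420. Total counts alone gave 3 higher and 4 lower with ISO, and 5 and 1 with SR-3420. Zfp36, the gene of tristetraprolin, measured 34.5 to 46.0 CPM in Vehicle, 68.2 to 145 in ISO and 232 to 276 in SR-3420, and rose by 1.38 and 2.62 on the log2 scale. With inhibitors the level was 28.3 to 38.1 CPM in Lipase Inh. + SR-3420, and the SR-3420 response was smaller by -2.93 ± 0.25 (SE; adjusted p = 3.47e-08, edgeR). Elavl1, which encodes the mRNA-stabilising protein HuR, rose by 1.01 in ISO and 1.03 in SR-3420.

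Receptors and further ligands add a few genes. Ackr3, the scavenging receptor of CXCL12, measured 0.758 to 1.41 CPM in Vehicle and 3.89 to 5.29 in ISO, rose by 2.13 in ISO and 1.09 in SR-3420, and responded more to ISO with inhibitors, by 2.19 ± 0.38 (SE; adjusted p = 0.000114, edgeR). Cxcr4, the signalling receptor of CXCL12, fell by 1.64 with ISO from 0.637 to 0.188 CPM (4 to 11 counts per library against 1 to 3), a call that DESeq2 did not make. The ISO response of Ccl9, a macrophage-attracting chemokine, was larger with inhibitors by 1.00 ± 0.19 (adjusted p = 0.000392), and that of Cxcl11, a relative of Cxcl10, was smaller by -1.98 ± 0.74 (adjusted p = 0.0448), a call absent without replicate 2 of Lipase Inh. + SR-3420, on total counts alone and by DESeq2. Tslp, a cytokine of type 2 immunity, rose by 1.08 with ISO (adjusted p = 0.0443), a call that neither total counts alone (0.78, adjusted p = 0.132) nor DESeq2 (adjusted p = 0.0697) made. Its list of 8 tested inflammatory cytokine genes had 2 higher and 0 lower with ISO, or 1 and 2 on total counts alone. Ptgs2, which encodes cyclooxygenase 2, rose by 1.4 with SR-3420, and by 1.11 with SR-3420 under inhibitors. Vcam1, the 1 tested adhesion gene of 4, rose by 0.51 with ISO, though not on total counts alone.

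**Figure D5:**
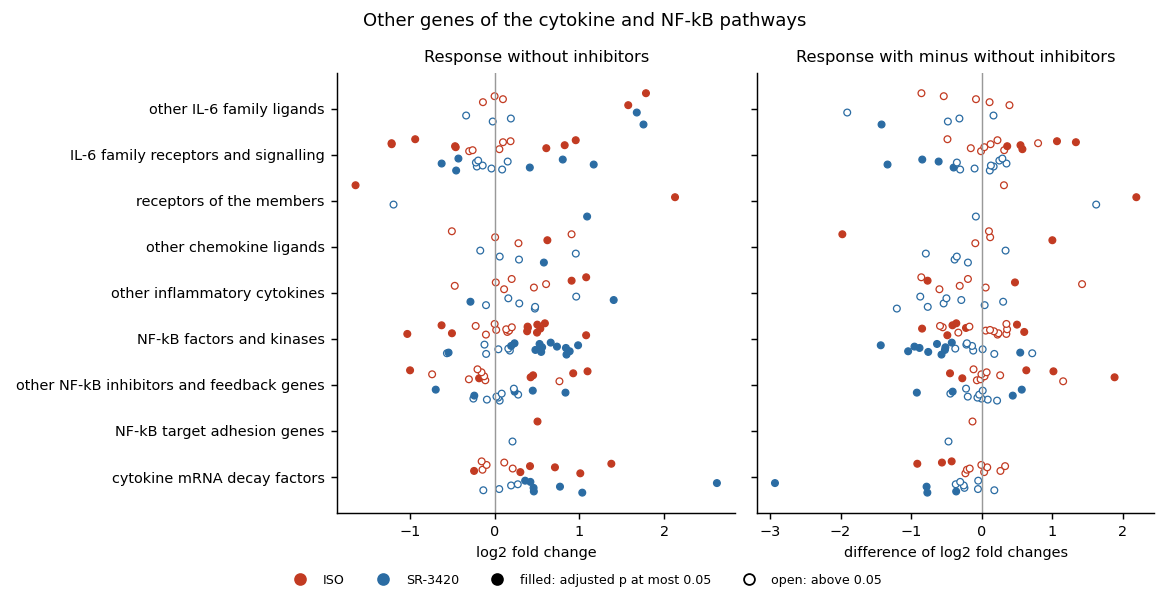
Log2 fold change with ISO and SR-3420 (left panel, x axis) and difference of these responses with and without lipase inhibitors (right panel, x axis) for the 77 tested genes of the 9 other lists (y axis), 1 point per gene and stimulus, filled where the adjusted p was at most 0.05. Zfp36 is the point at 2.62 with SR-3420 on the left and at -2.93 on the right.

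As a description, the genes most alike each member over the 18 libraries (Pearson r of log2 CPM, among genes of average log2 CPM of at least 3) were named, bearing in mind that these points share the same 6 groups. For Il6 they were Fbxw11 (r = 0.97), Mfap1b (0.96) and Zfp516 (0.95), and for Lif they were Txlng (0.97), Prpf38b (0.95) and Tra2b (0.95). Cxcl1 was closest to Senp1, Tnfaip2 and Abi1 (each r = 0.91), Cxcl5 to Atp6v1h (0.82), U2af1l4 (0.81) and Plekha2 (0.80), and Cxcl10 to Kank1 (0.90), Erlin1 (0.88) and Ing5 (0.88). For Ccl2 the list was Elf2, Antxr1 and H2-Q4 (each 0.88), and for Ccl7 it was Mcm3, Col1a2 and Kbtbd2 (each 0.87). Cxcl12 was most like Slc1a4 (0.93), Otud5 (0.92) and Cyp1b1 (0.87), Csf1 like Gtf3c2 (0.89), Rnd3 (0.88) and Trp53 (0.87), and Nfkbia like Rhbdd3 (0.95), Fbxo31 (0.95) and Nrm (0.94). Between members, the highest coefficients were those of Lif with Cxcl1 (0.85) and Ccl7 with Cxcl1 (0.80), and the lowest was that of Il6 with Nfkbia (-0.83).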

How the data were processed

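The authors prepared TruSeq libraries from total RNA, mapped reads to mm9 using STAR 2.4.2a, limited duplicates in HOMER to 1 read per position and read length, and used iRNA-seq to count reads within RefSeq genes. The table they deposited has raw counts, not normalized, for 20295 genes and 0 columns of other samples. Since duplicates were collapsed by position, counts of abundant genes can be compressed, and the use of strand was not stated.

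Counts were tested with the quasi-likelihood test of edgeR 4.0.16 (R 4.3.3) in 1 fit of all 18 samples with TMM factors, for 12156 genes kept by filterByExpr (minimum count 10, minimum total 15), with Benjamini-Hochberg adjustment over all of them. Rose, fell, higher and lower calls mean an adjusted p of at most 0.05. The count of larger rises also asks for a log2 fold change of 1 or more, as in the study. CPM is the count divided by the TMM-scaled total of the kept genes, on edgeR's CPM scale. SE is the size of the log2 fold change divided by the root of the F statistic. Intervals of count ratios are exact (Clopper-Pearson) and cover counting error only. DESeq2 1.42.0, other scalings and filters, a replicate block and each library left out served as alternatives. The code was tested on simulated data.

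All 10 members were named. From each of the 9 other lists, up to 3 genes per direction were named that passed with a change of 1 or more on the log2 scale in either direction and were largest in ISO versus Vehicle, SR-3420 versus Vehicle or the ISO by inhibitor interaction, and for each member the 3 most correlated genes. Of these, 1 gene that the rule names is not reported here. Vcam1 and Art3 were named after their values were seen. The members and lists were chosen with earlier results of these data known. Groups and numbers come from the sample titles. The methods of the study describe the 3 samples of a group as independent experiments, and the labels do not repeat this.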

Additional observations from a re-analysis of the deposited data

Results flagged for a closer look

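The response to SR-3420 differed between cells with and without lipase inhibitors for 2 members, by the test of the difference itself (edgeR). For Csf1 the difference of log2 fold changes was -0.92 ± 0.10 (SE; adjusted p = 1.31e-06), and for Nfkbia it was 0.50 ± 0.12 (adjusted p = 0.00387). Among all tested genes 27.3% passed this test. At an unadjusted p under 0.05 there were 6 members. Csf1 stood above its vehicle in 3 of 3 SR-3420 libraries without inhibitors and below it in 3 of 3 with inhibitors. The vehicle with inhibitors itself lay above Vehicle in every library (log2 fold change 0.21, adjusted p = 0.227).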

How the results depend on the processing

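The count of members that passed moved by over 1.5 times in some fits. For SR-3420 under inhibitors it went from 2 to 1, with Lif lost, on total counts alone, with DESeq2, without a filter, with a stricter filter (at least 50 counts in 3 samples, which removes Lif) and with only the groups compared (where Lif was filtered out). The ISO by inhibitor difference went from 0 to 1, Cxcl12, on total counts alone and without a filter. Beyond the genes removed by a filter, the cause was not tested. The stricter filter removes Il6, Lif and Cxcl5 and left 4 for ISO versus Vehicle and 4 for ISO versus SR-3420. With only the groups compared, the default filter removed Il6 for SR-3420 versus Vehicle, which left 7. It also removed Lif for ISO under inhibitors, which left 3. Leaving out 1 library at a time gave 5 to 8 members for ISO, 7 to 8 for SR-3420, 0 for the inhibitors alone, 3 to 5 for ISO under inhibitors, 1 to 2 for SR-3420 under inhibitors, 0 to 1 and 2 to 4 for the inhibitor differences of ISO and SR-3420, and 4 to 7 for ISO versus SR-3420.

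With the replicate number as a block, 1 member (Cxcl12) passed for the ISO by inhibitor difference and 4 for that of SR-3420 (Ccl2 and Ccl7 were added), while 8 passed for ISO, 9 for SR-3420, 6 and 3 under inhibitors and 8 for ISO versus SR-3420. Cxcl12 then passed with SR-3420 (-0.21, adjusted p = 0.0312), with ISO under inhibitors (-0.27, adjusted p = 0.00485) and with SR-3420 under inhibitors (-0.37, adjusted p = 0.00526). Same-numbered libraries deviated together only weakly (mean r 0.11; -0.012, 0.15 and 0.19 for numbers 1, 2 and 3), and 12 of 18 correlated best with their own number, a hint from the data and not the design, so they share a number and are not treated as pairs.

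Signs turned only for differences that did not pass. On total counts alone Ccl2 gave -0.27 and Csf1 -0.14 with ISO, Cxcl5 -0.026 with SR-3420, Csf1 -0.21 with ISO under inhibitors, Nfkbia -0.079 with SR-3420 under inhibitors and 0.035 for the ISO by inhibitor difference. The stricter filter gave -0.010 for Csf1 with ISO under inhibitors. Leaving out 1 library at a time, the log2 fold change crossed 0 for Ccl2 (-0.11 to 0.15) and Cxcl10 (-0.091 to 0.088) with ISO, for Cxcl5 (-0.00051 to 0.35) with SR-3420, for Il6 (-0.28 to 0.90), Ccl2 (-0.11 to 0.20), Ccl7 (-0.18 to 0.15), Cxcl1 (-0.48 to 0.032), Cxcl10 (-0.20 to 0.13) and Cxcl12 (-0.011 to 0.30) with the inhibitors alone, for Il6 (-0.80 to 0.37) and Nfkbia (-0.14 to 0.024) for the ISO by inhibitor difference, for Cxcl12 (-0.29 to 0.021) for the SR-3420 by inhibitor difference, for Nfkbia (-0.039 to 0.0047) for ISO versus SR-3420, for Ccl7 (-0.21 to 0.13) with ISO under inhibitors, for Il6 (-0.74 to 0.35), Ccl2 (-0.048 to 0.26), Ccl7 (-0.19 to 0.31) and Nfkbia (-0.052 to 0.062) with SR-3420 under inhibitors.

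Depth limited Il6 and Lif most, with 0 to 9 counts in each vehicle library, and Lipase Inh. + SR-3420 replicate 2 (4263755 counts) in every comparison of its group. Leaving it out, an alternative chosen after its depth was seen, changed no member's call in any of the 8 comparisons.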

Other observations

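Replicate numbers went with the level of 2 chemokines in every group, although the labels give the number no meaning. Ccl2 was lowest in the library numbered 2 and highest in that numbered 3 in 6 of 6 groups. Cxcl12 was highest in number 3 in 6 of 6 groups and lowest in number 2 in 5 of 6. No other member had the same number lowest or highest in all 6 groups. The share of all tested genes with such an order was not counted.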
